A study of Mus musculus with 9 samples.

Results

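The cyclic AMP (cAMP) signalling machinery is the set of proteins that carries a hormone or transmitter signal from a cell surface receptor to protein kinase A. A list of 39 mouse genes was examined, chosen by name and grouped by step: receptors, G proteins, adenylyl cyclases, kinase subunits, phosphodiesterases, anchoring proteins, arrestins with a receptor kinase, and the exchange factor Epac. Of these, 35 had a probe set that named them alone, out of 18193 genes with such a probe set in the table, and each was represented by its brightest probe set over all arrays. All 35 passed the filter on dim probe sets, a mean log2 value of at least 2.66. The adrenergic receptor gene Adrb1, the adenosine receptor genes Adora2a and Adora2b, and the phosphodiesterase gene Pde4c were not analysed here. The list therefore gives no value for an adrenergic receptor, although the name of the pathway leads with them.

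The mice were C57BL/6, and RNA of their CD11b+ splenocytes was hybridised to Affymetrix MOE430 arrays. The cells were adherent spleen cells selected with magnetic beads for CD11b, the integrin that myeloid cells and natural killer cells carry. The HighThreat group held 6 animals exposed repeatedly to social threat, 1 array each, and the LowThreat group held 6 animals that met no threat, whose RNA or cells were combined 2 by 2 on 3 arrays, here called control pools. The study asked if these cells express genes differently after social threat. No sex, age or duration of exposure was used here. The labels do not say whether the cells of the groups were prepared together, so limma's p-values weigh differences only against the spread within groups. Pools of 2 animals and single animals counted alike in limma's main fit. The values are RMA expression values on the log2 scale, where a difference of 1 is a doubling. In a bulk sample, fewer cells of a type and less RNA per cell cannot be told apart.

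In this pathway a ligand such as noradrenaline, prostaglandin E or adenosine binds a receptor that activates the stimulatory G protein, whose alpha subunit turns on adenylyl cyclase. Inhibitory alpha subunits turn the cyclase off. The cAMP that is made binds the regulatory subunits of protein kinase A and frees the catalytic subunits, and it also activates Epac. Phosphodiesterases break cAMP down, anchoring proteins hold the kinase at particular sites in the cell, and receptor kinases and arrestins switch the receptor off. In macrophages and monocytes, a rise of cAMP is known to dampen the production of several inflammatory cytokines. Adrenergic receptors on immune cells are a known route by which sympathetic nerves act on the spleen.

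A DNA element through which cAMP acts on transcription, the cAMP response element, is spelled TGACGTCA, and its core, TGACG, is the part shared with weaker sites. Both were searched on both strands in the RefSeq promoter windows of mouse build GRCm38.p6, each 300 bases long with 250 before a gene's start and 50 after it. The table holds 32851 such windows. Of the 39 genes, 32 had at least 1 window and 65 windows in all, some of which overlap because a gene has several starts. The stretches below are the 120 bases just before a start of 4 genes that were lower in threat animals, 2 with a core motif there and 2 without, so that genes that fell can be seen with and without the element. Where a gene has several starts, the start whose stretch holds the motif is shown. Gnas has 4 starts, and at the one farthest downstream the core lies at -216, outside such a stretch. Which start gives the stimulatory alpha subunit was not examined. Bases in capitals mark the core motif on either strand.
Prkar1a, chr11:109650829-109650948, plus strand: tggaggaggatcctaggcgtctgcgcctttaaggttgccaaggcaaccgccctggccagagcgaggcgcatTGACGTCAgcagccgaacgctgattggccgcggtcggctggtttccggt
Gnas, chr2:174327629-174327748, plus strand: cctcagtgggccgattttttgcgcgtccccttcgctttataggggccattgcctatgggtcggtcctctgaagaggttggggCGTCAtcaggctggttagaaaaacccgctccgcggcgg
Ptger4, chr15:5244188-5244307, minus strand: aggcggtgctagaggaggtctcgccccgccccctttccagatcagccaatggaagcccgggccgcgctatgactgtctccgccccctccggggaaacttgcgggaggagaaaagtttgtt
Pde4d, chr13:108654057-108654176, plus strand: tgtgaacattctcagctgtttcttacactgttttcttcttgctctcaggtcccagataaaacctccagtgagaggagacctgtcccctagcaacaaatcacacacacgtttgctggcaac

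The full palindrome was found in the windows of 1 of the 32 genes, Prkar1a, which encodes a regulatory subunit of protein kinase A. It begins at position -49 from the start shown, and 2 overlapping windows of the gene hold it. Of all windows in the table, 1.79% hold the palindrome. The core was found in 22 of the 65 windows (33.8%), against 20.8% of all windows. By the calls described below, the core was in a window of 4 of 7 genes that rose, 4 of 8 that fell and 9 of 14 that were not called. A match describes the letters in these windows and is not a site of binding.

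Of the 35 genes, 20 differed between threat animals and control pools in limma's fit over 13078 genes with a p under 0.05 after Benjamini-Hochberg adjustment. That is 57.1% of the list, where 45.8% of all genes tested were called. The calls comprised 9 rises (25.7%, against 23.8% of all genes) and 11 falls (31.4%, against 22.0%). With so many genes called in the whole table, the share is no result about the list, and the account below turns on which genes moved and how far. Shares by step rest on few genes each and are no result about a step. In 19 of the 35 genes (54.3%) the threat and control values did not overlap, against 41.8% of all genes, with 9 higher (21.5% of all genes were) and 10 lower (20.3% of all genes were). The median absolute difference was 0.15 on the log2 scale, as it was for all genes. Differences reached 1.5-fold in 5 genes (14.3%), all of them called, where 11.2% of all genes both reached it and were called. Pde7a, Pde3b, Ptger4 and Pde4d fell, and Arrb2 rose.

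**Figure D1:**
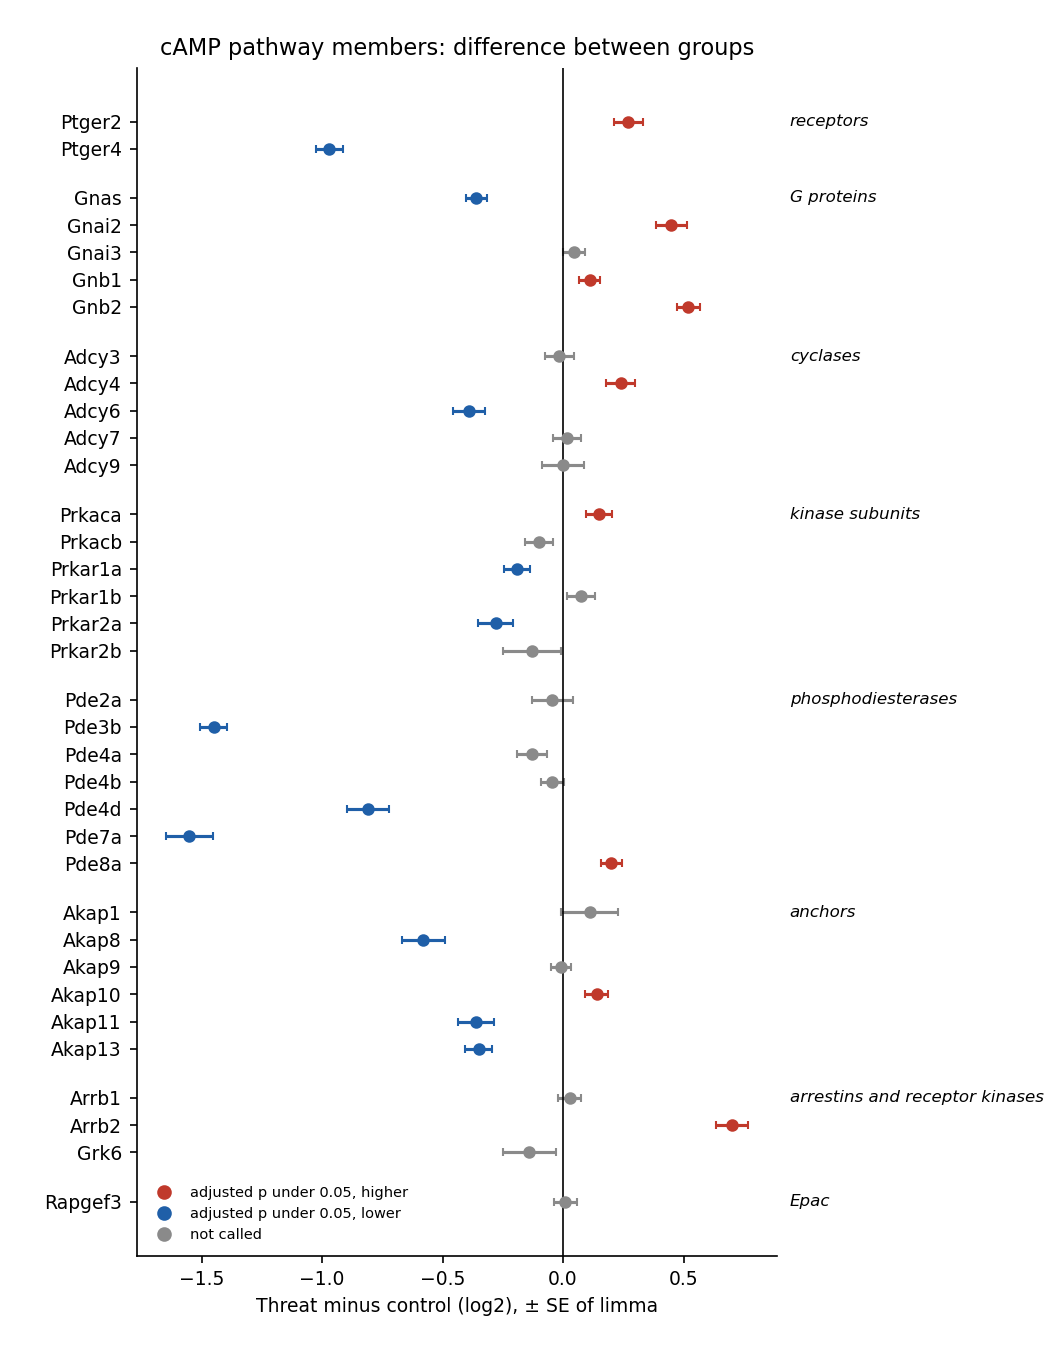
Difference between threat animals and control pools for each of the 35 genes, by step; the x axis is threat minus control on the log2 scale, points are differences, bars are limma's SE, and colour marks the call at an adjusted p under 0.05. Pde7a and Pde3b lie farthest to the left, at -1.55 and -1.45, and Arrb2 farthest to the right, at 0.70.

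The protocol calls the sorted cells monocytes, but many markers of other cell types passed the filter, and many of these differed between the groups. Of 11 B cell markers tested 10 fell, and the mean of the list ran from 6.43 to 6.67 in control pools and from 4.51 to 4.89 in threat animals. Of 11 natural killer cell markers 10 fell (list mean 5.44 to 5.60 in control pools, 3.82 to 4.00 in threat animals), as did 7 of 9 dendritic cell markers (6.03 to 6.14 and 5.2 to 5.24) and 4 of 9 T cell markers (4.58 to 4.68 and 4.34 to 4.47). Granulocyte markers rose in 14 of 15 (8.38 to 8.55 and 9.75 to 10.19), erythroid and platelet markers in 5 of 7 (4.52 to 4.65 and 4.86 to 4.99), and monocyte and macrophage markers in 8 of 11 with 1 fall (9.33 to 9.45 and 9.65 to 9.71). Itgam, which encodes CD11b, was at 7.91, 7.96 and 7.92 in the control pools and between 8.40 and 8.58 in the threat animals, a rise of 0.57 (SE 0.051, adjusted p = 1.7e-06). Of the leading markers of each list, S100a8 and S100a9 rose by 0.39 and 0.47 and Itgb2 by 0.21. Ms4a1 fell by 2.52, Zbtb46 by 1.08, Cd3d by 0.87 and Flt3 by 0.51, while Cd3e (-0.041) and Ncr1 (-0.094) were not called. No marker was listed at 0, but the lowest value in the whole table was 0.607, and RMA gives no detection call. A value is thus no proof of expression. Tbx21, a natural killer cell marker, ran from 2.01 to 2.38 in threat animals, under the filter value, and Cd3g, Cd28 and Hba-a1 did not pass the filter. The part of these cell types in the differences below was not tested.

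The 2 receptors of the list, both for prostaglandin E and both coupled to the stimulatory G protein, moved in opposite directions. Ptger4 fell by 0.97 on the log2 scale, a 1.96-fold difference (SE 0.055, adjusted p = 2.8e-08), and Ptger2 rose by 0.27 (SE 0.060, adjusted p = 0.0027). Ptger4 stood at 9.06, 9.19 and 9.03 in the control pools, and in the threat animals it ran from 8.03 to 8.20 with a median of 8.14. Every threat animal was lower than every control pool by a wide margin compared with the SD within groups, 0.084 (n = 3) and 0.0653 (n = 6). Ptger2 stood at 5.89, 5.80 and 6.07 in the control pools and ran from 6.13 to 6.24 in the threat animals, with a median of 6.18. Those groups do not overlap either, but control pool 5-6 lies close to the lowest threat animal. The second probe set of Ptger4 fell too, by 0.90.

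The within-array difference of the 2 receptors, Ptger2 minus Ptger4, rose by 1.23 in threat animals (exact permutation p = 0.0119, two-sided, the smallest that 84 divisions of the arrays into 6 and 3 allow). A comparison of this kind was made for 8 pairs of family members, and p-values were adjusted over those 8 pairs. For this pair the adjusted p was 0.0136. It shows that the probe sets changed unequally, and the difference was higher in all 6 threat animals than in any control pool. That separation followed from the values above, since Ptger2 was higher and Ptger4 lower in every threat animal. This p is thus no further support.

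Outside the list, 75 further genes of the pathway were examined, of which 50 passed the filter. Among them 12 rose and 9 fell, which is 42.0% called against 45.8% of all genes. The genes of this set named here and below, apart from Calcrl, were chosen after their values were seen. Of 11 further receptors, 4 rose and 1 fell. Calcrl, the receptor for adrenomedullin and calcitonin gene-related peptide, rose by 1.08 (SE 0.092, adjusted p = 9.9e-07), from 6.13, 6.17 and 6.52 in the control pools to between 7.20 and 7.48 in the threat animals. Every threat animal was above every control pool. The histamine receptor gene Hrh2 rose by 0.82 (SE 0.063) and the serotonin receptor gene Htr7 by 0.37 (SE 0.064), while the acid-sensing receptor gene Gpr65 fell by 0.40 (SE 0.044). Adrenergic receptors were represented in this set by Adra1b, which rose by 0.18 (SE 0.065, adjusted p = 0.0384) at control and threat means of 2.72 and 2.90, close to the filter value, and by Adra2c, which differed by -0.022 (adjusted p = 0.813).

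Of the 5 G protein subunit genes of the list, 3 rose, 1 fell and 1 was not called. That is 80.0% called, against 45.8% of all genes, and so few genes give no result about the step. Gnas, which encodes the stimulatory alpha subunit, fell by 0.36 (SE 0.044, adjusted p = 2.3e-05). Gnai2, an inhibitory alpha subunit, rose by 0.45 (SE 0.063, adjusted p = 8.2e-05), and the beta subunit gene Gnb2 rose by 0.52 (SE 0.048, adjusted p = 2.2e-06). Gnb1, another beta subunit, rose by 0.11 (SE 0.042, adjusted p = 0.0485), and the inhibitory Gnai3 differed by 0.046 (SE 0.047, adjusted p = 0.464). The differences of Gnas, Gnai2 and Gnb2 were between 1.29-fold and 1.43-fold.

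Gnas was at 10.58, 10.63 and 10.58 in the control pools and ran from 10.19 to 10.30 in the threat animals, with a median of 10.23. The groups are apart, and the SD within them was 0.031 (n = 3) and 0.0388 (n = 6). All 3 probe sets of Gnas past the filter fell, by 0.31 to 0.64, although the mean of all its probe sets, dim ones included, fell by only 0.21. Gnb2 stood at 9.73, 9.68 and 9.71 in the control pools and ran from 10.15 to 10.29 with a median of 10.21 in the threat animals. Both probe sets of Gnai2 rose, by 0.45 and 0.59, and its control values, 9.84 to 10.05, lay below its threat values, 10.24 to 10.48. Each of these genes thus separated the arrays completely, as 41.8% of all genes tested did.

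The call of Gnb1 was weak. Its values, 8.83 to 8.85 in control pools and 8.92 to 9.0 in threat animals, do not overlap, but the call was lost without any one of the 9 arrays. The adjusted p was 0.104 without control pool 1-2, 0.0895 without 3-4 and 0.0964 without 5-6. It was 0.0688, 0.0637, 0.0705, 0.0878, 0.0665 and 0.0529 without threat animals 1 to 6 in turn. The second probe set of the gene differed by -0.034. In within-array differences, Gnai2 gained on Gnai3 by 0.40, and Gnb1 minus Gnb2 was lower by 0.41 (change -0.41), each with an exact permutation p of 0.0119 (0.0136 adjusted over the 8 pairs).

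The further G protein genes of the pathway set followed no single direction. Of 12 tested, 4 rose and 1 fell, which is 41.7% called against 45.8% of all genes. The gamma subunit genes Gng12 and Gng2 rose by 0.85 (SE 0.055) and 0.64 (SE 0.063), and the beta subunit gene Gnb5 by 0.41 (SE 0.078), while Gnb4 fell by 0.43 (SE 0.11). Gnai1, a further inhibitory alpha subunit, rose by 0.37 (SE 0.098) from a control mean of 2.57, under the filter value, so that rise is measured from the range of background.

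**Figure D2:**
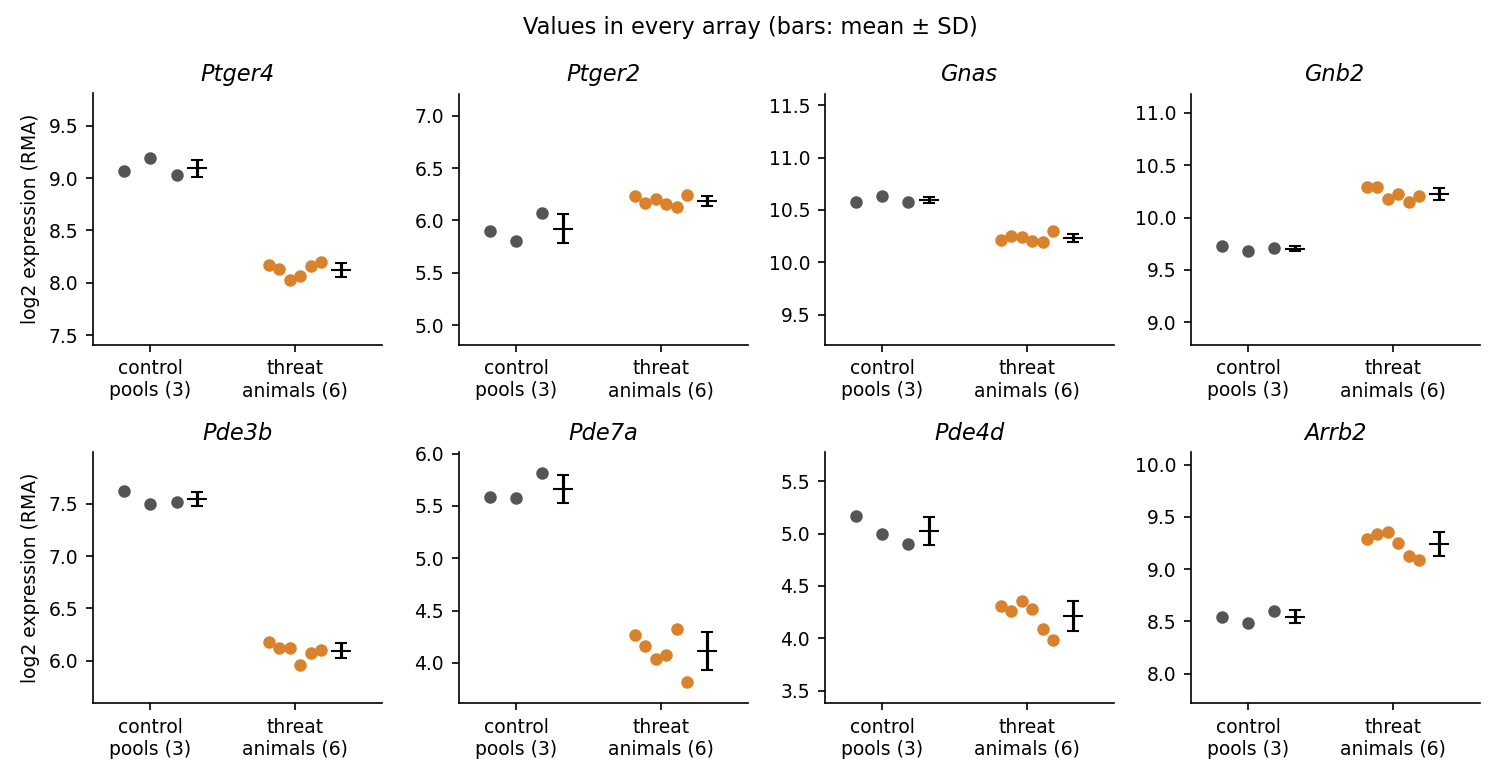
Log2 expression of 8 genes in every array, with control pools in grey, threat animals in orange, and bars for mean ± SD (n = 3 and n = 6); each panel spans the same range of the y axis. In all 8 panels the groups are apart, with Ptger4, Gnas, Pde3b, Pde7a and Pde4d lower and Ptger2, Gnb2 and Arrb2 higher in threat animals. All 8 are among the 19 of 35 genes whose groups do not overlap, so the panels do not stand for the list.

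Adenylyl cyclases make cAMP. Of the 5 cyclase genes, Adcy4 rose by 0.24 (SE 0.060, adjusted p = 0.00552) and Adcy6 fell by 0.39 (SE 0.065, adjusted p = 3.3e-04), and Adcy3, Adcy7 and Adcy9 were not called. Adcy7, a cyclase of blood cells and the brightest probe set of the step, differed by 0.016 (SE 0.058, adjusted p = 0.845). Its values were 7.26, 7.25 and 7.41 in the control pools and 7.24 to 7.43, median 7.32, in the threat animals, so the groups lie within each other. Adcy3 differed by -0.016 (SE 0.060, adjusted p = 0.856) and Adcy9 by -0.00067 (SE 0.088, adjusted p = 0.995).

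Adcy6 stood at 4.91, 5.00 and 5.02 in the control pools and ran from 4.46 to 4.70 in the threat animals, with a median of 4.59. Adcy4 stood at 3.56, 3.65 and 3.62 in the control pools and ran from 3.76 to 3.98 with a median of 3.84. Both separate the groups, each with 1 probe set only. Adcy4 is dim, and it dropped out at the stricter filter. Of 4 further genes at this step, Cap1, which encodes a cyclase-associated actin regulator, rose by 0.23 (SE 0.057), and no other was called.

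Of the 6 protein kinase A subunit genes, 1 rose, 2 fell and 3 were not called. Of the 2 catalytic subunit genes, Prkaca rose by 0.15 (SE 0.055, adjusted p = 0.0416) and Prkacb differed by -0.10 (SE 0.059, adjusted p = 0.182). Of the 4 regulatory subunit genes, which hold the catalytic subunits inactive until cAMP binds, Prkar1a fell by 0.19 (SE 0.054, adjusted p = 0.0105) and Prkar2a fell by 0.28 (SE 0.074, adjusted p = 0.0071). Prkar1b differed by 0.075 (SE 0.057, adjusted p = 0.314) and Prkar2b by -0.13 (SE 0.12, adjusted p = 0.398). The largest difference of the step, that of Prkar2a, was 1.22-fold.

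Prkar1a, the brightest of the step and the gene whose promoter window holds the palindrome printed above, was at 9.67, 9.62 and 9.51 in the control pools. In the threat animals it ran from 9.33 to 9.49 with a median of 9.42, so that the highest threat animal lay just under the lowest pool. Its second probe set fell by 0.21. Prkar2a stood at 5.84, 5.87 and 5.62 in the control pools and ran from 5.36 to 5.64, median 5.48, in the threat animals, and here threat animal 1 was above control pool 5-6. Both of its probe sets fell, by 0.28 and 0.30. Prkar2b was the most variable of the step, at 6.80, 6.77 and 7.27 in the control pools and 6.60 to 7.0 in the threat animals.

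Prkaca stood at 5.12, 5.05 and 4.93 in the control pools and ran from 5.13 to 5.26, median 5.16, in the threat animals. The groups barely clear each other, and the call was lost under several alternatives, among them leaving out single arrays. The adjusted p was 0.0721 without control pool 3-4, 0.198 without 5-6, and 0.0733, 0.0783 and 0.0570 without threat animals 1, 3 and 6. It was 0.0803 with threat animals averaged by number, 0.0845 with array weights and 0.0590 with no filter. Prkar1a was no longer called when control pool 1-2 was left out (adjusted p = 0.0603), and Prkacb was called without control pool 5-6, where it fell by 0.17 (adjusted p = 0.0276). Within arrays, Prkaca gained on Prkacb by 0.25 (exact permutation p = 0.0119, 0.0136 adjusted over the 8 pairs). Prkar1a minus Prkar1b changed by -0.27 (the same exact permutation p), a change that missed the threshold with the mean of each gene's probe sets (-0.094, adjusted exact permutation p = 0.0680). The comparison of Prkar2a with Prkar2b gave -0.16 (exact permutation p = 0.512).

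Of the further kinase genes of the pathway set, 3 were tested. All 3 fell, where 22.0% of all genes tested did, and so few genes give no result about the step. Pkig fell by 0.51 (SE 0.060) and Pkib by 0.25 (SE 0.082), and both encode inhibitor proteins of the catalytic subunit. Prkx, which encodes a kinase related to that subunit, fell by 0.25 (SE 0.072). The groups do not overlap for Pkig, but they do for Pkib and Prkx. Pkia did not pass the filter.

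Phosphodiesterases held the largest differences of the list. Of 7 genes measured, Pde7a, Pde3b and Pde4d fell, Pde8a rose, and Pde2a, Pde4a and Pde4b were not called. The share called was 57.1%, against 45.8% of all genes. Pde7a fell by 1.55 (SE 0.099, adjusted p = 7.8e-08) and Pde3b fell by 1.45 (SE 0.056, adjusted p = 1.2e-09), which are 2.92-fold and 2.74-fold differences. Pde4d fell by 0.81 (SE 0.086, adjusted p = 6.7e-06). All 3 hydrolyse cAMP, and Pde7a and Pde3b are known to be well expressed in lymphocytes. In the same arrays 10 of 11 B cell markers and 10 of 11 natural killer cell markers fell. Of 9 T cell markers 4 fell and 5 were not called, and 7 of 9 dendritic cell markers fell. The list means are given above, and the part of these cell types in the lower phosphodiesterase values was not tested.

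Pde3b stood at 7.63, 7.50 and 7.52 in the control pools and ran from 5.96 to 6.18 in the threat animals, with a median of 6.11. The gap between the groups is many times the SD within them, 0.068 (n = 3) and 0.0737 (n = 6). Pde3b has only 1 probe set past the filter. Pde7a was at 5.59, 5.58 and 5.81 in the control pools and ran from 3.82 to 4.32, median 4.12. All 7 probe sets of Pde7a that passed the filter fell, by 0.54 to 1.75, and where probe sets specific to 1 transcript were preferred the gene fell by 0.96. Most of the 7 were dim, at means of 3.07 to 3.49 over all arrays, with 3.22 for the one that fell by 1.75. The filter, at 2.66, used the mean over all arrays, so higher control values helped such probe sets to pass it. Pde4d was at 5.17, 5.00 and 4.90 in the control pools and ran from 3.99 to 4.35, median 4.27. It has 1 probe set past the filter, and fell by 0.39 when all its probe sets, dim ones included, were averaged.

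Pde4b, a phosphodiesterase of monocytes that inflammatory stimuli are known to induce and the brightest probe set of the step, was at 9.06, 9.05 and 9.04 in the control pools and ran from 8.93 to 9.08, median 9.01, in the threat animals. The groups overlap, and the gene differed by -0.044 (SE 0.046, adjusted p = 0.471). None of its 3 probe sets was called. Pde4b minus Pde4d, a comparison within arrays, rose by 0.77 in threat animals (exact permutation p = 0.0119, 0.0136 adjusted over the 8 pairs). Pde8a was at 6.74, 6.78 and 6.71 in the control pools and ran from 6.91 to 6.98, median 6.94, a rise of 0.20 (SE 0.043, adjusted p = 0.0018). Its groups are apart, but the second of its 2 probe sets, with a difference of 0.16, was not called. Pde4a differed by -0.13 (adjusted p = 0.118, and 0.0478 without control pool 1-2).

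Pde2a, a phosphodiesterase that cyclic GMP stimulates, differed by -0.045 (SE 0.085, adjusted p = 0.699) but varied among threat animals, from 7.80 in animal 6 to 8.21 in animal 2, around control pools at 8.06 to 8.10. Of 6 further phosphodiesterases in the pathway set, Pde1b rose by 0.30 (SE 0.10) and Pde3a by 0.20 (SE 0.068), and none fell. Pde3a, the relative of Pde3b, thus differed in the other direction, at control and threat means of 4.12 and 4.32, with overlapping groups.

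**Figure D3:**
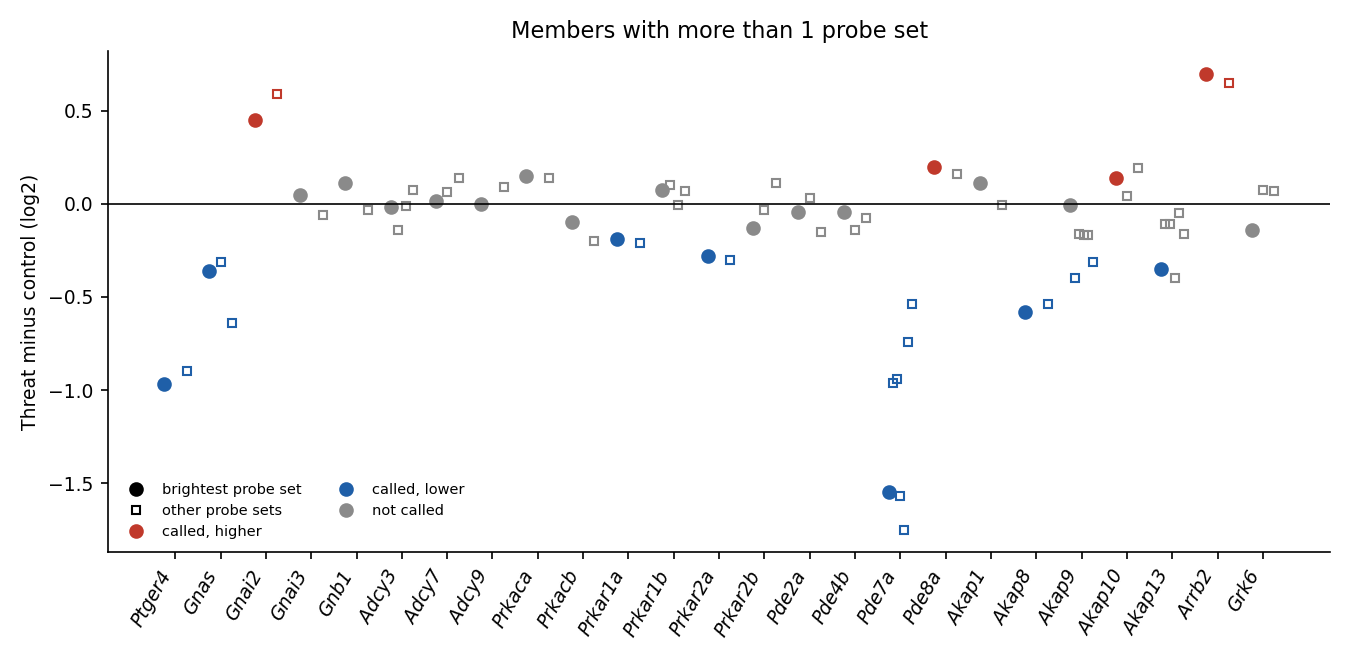
Difference between groups (y axis, log2) for each probe set of the 25 genes with more than 1 past the filter, where filled circles are the brightest probe set, open squares the others, and colours mark calls in a fit over single probe sets. The 7 probe sets of Pde7a all lie below 0, while the colours are mixed for Pde8a, Akap9, Akap10 and Akap13.

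The probe sets of a gene could be compared with each other. Of 25 genes with more than 1 probe set past the filter, 8 had every probe set called the same way, 13 had none called and 4 had some called and others not. None had probe sets called in both directions. This fit over single probe sets, chosen after the data were seen, left Gnb1 and Prkaca uncalled (adjusted p = 0.0548 and 0.0502).

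Among anchoring proteins of protein kinase A, 3 of 6 fell and 1 rose. That is 66.7% called, against 45.8% of all genes, and so few genes give no result about the step. Akap8, a nuclear anchor, fell by 0.58 (SE 0.090, adjusted p = 1.7e-04), Akap11 by 0.36 (SE 0.075, adjusted p = 0.00164) and Akap13 by 0.35 (SE 0.055, adjusted p = 2.0e-04). Akap10 rose by 0.14 (SE 0.047, adjusted p = 0.0247). The mitochondrial anchor gene Akap1 differed by 0.11 (SE 0.12, adjusted p = 0.512) and the Golgi and centrosome anchor gene Akap9 by -0.0070 (SE 0.041, adjusted p = 0.907).

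Akap8 stood at 6.05, 6.05 and 6.39 in the control pools and ran from 5.42 to 5.70, median 5.61, in the threat animals. The groups are apart, and the second probe set fell by 0.54. Akap13, the brightest of the step, stood at 8.76, 8.86 and 8.74 in the control pools and ran from 8.31 to 8.51, median 8.46. It separates the groups, yet 5 of its 6 probe sets were not called, and the mean of its probe sets gave -0.18 (adjusted p = 0.118). Akap9 depended on the probe set: with probe sets specific to 1 transcript it fell by 0.40 (adjusted p = 0.0179).

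Akap10 was at 6.08, 5.97 and 6.02 in the control pools and ran from 6.09 to 6.21, median 6.17, in the threat animals. The groups barely clear each other, and leaving out control pool 3-4 ended the call (adjusted p = 0.104), as did leaving out pool 5-6 (adjusted p = 0.0567). It was also lost when the gene's probe sets were averaged (adjusted p = 0.173) and when threat animals were averaged by number (adjusted p = 0.0579). Among 6 further anchor genes, Akap12, also called gravin, fell by 0.73 (SE 0.11) to a threat mean of 2.79 and Akap2 by 0.36 (SE 0.055) to 2.83, both close to the filter value.

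Of the genes that switch receptors off, Arrb2 was higher in threat animals. It encodes a beta-arrestin, a protein that uncouples receptors from G proteins and brings in phosphodiesterases of the Pde4 family. Arrb2 stood at 8.55, 8.48 and 8.60 in the control pools and ran from 9.09 to 9.36, median 9.27, in the threat animals. The rise of 0.70 (SE 0.067, adjusted p = 2.9e-06) is a 1.62-fold difference, every threat animal was above every pool, and its second probe set rose by 0.65. Its relative Arrb1 differed by 0.027 (SE 0.046, adjusted p = 0.671). Within arrays, Arrb1 minus Arrb2 changed by -0.67 (exact permutation p = 0.0119, 0.0136 adjusted over the 8 pairs).

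The receptor kinase gene Grk6 differed by -0.14 (SE 0.11, adjusted p = 0.344) and had the largest SD of the list among threat animals, 0.223 (n = 6). It was highest in threat animal 1, at 7.25, and lowest in threat animal 5, at 6.72, against 7.03 to 7.16 in the control pools. The mean of the granulocyte markers was also highest in threat animal 1, at 10.19, and lowest in animal 5, at 9.75. The mean of the B cell markers was likewise highest in animal 1, at 4.89, and was low in animals 5 and 6, at 4.54 and 4.51. The natural killer cell mean was also highest in animal 1, at 4.00, and lowest in animal 5, at 3.82. Other lists ran differently: the monocyte and macrophage mean was highest in animal 5, at 9.71, as was the dendritic cell mean, at 5.24. The T cell mean was highest in animal 6, at 4.47, and the erythroid and platelet mean in animal 3, at 4.99. The part of these cell types in the spread was not tested. The other probe sets of Grk6 differed by 0.073 and 0.071 and were not called. Of 3 further receptor kinase genes, Grk3 fell by 0.45 (SE 0.092, adjusted p = 0.00139), and the others were not called. Granulocyte, monocyte and macrophage markers rose in the arrays in which Arrb2, Gnb2 and Gnai2 were high (14 of 15 and 8 of 11, list means above), and this too was not tested as a contribution.

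Epac, the exchange factor for Rap that cAMP activates without the kinase, could not be measured well. Rapgef3, which encodes it, stood at 2.77 in each control pool and ran from 2.69 to 2.86 in the threat animals, with a median of 2.77 and a difference of 0.0087 (SE 0.048, adjusted p = 0.901). These values lie at the filter, and 5 of the 9 arrays share the identical value 2.774, so they give no information on a change. Its substrate genes are bright: Rap1b rose by 0.23 (SE 0.046) and Rap1a fell by 0.13 (SE 0.046, adjusted p = 0.0360).

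**Figure D4:**
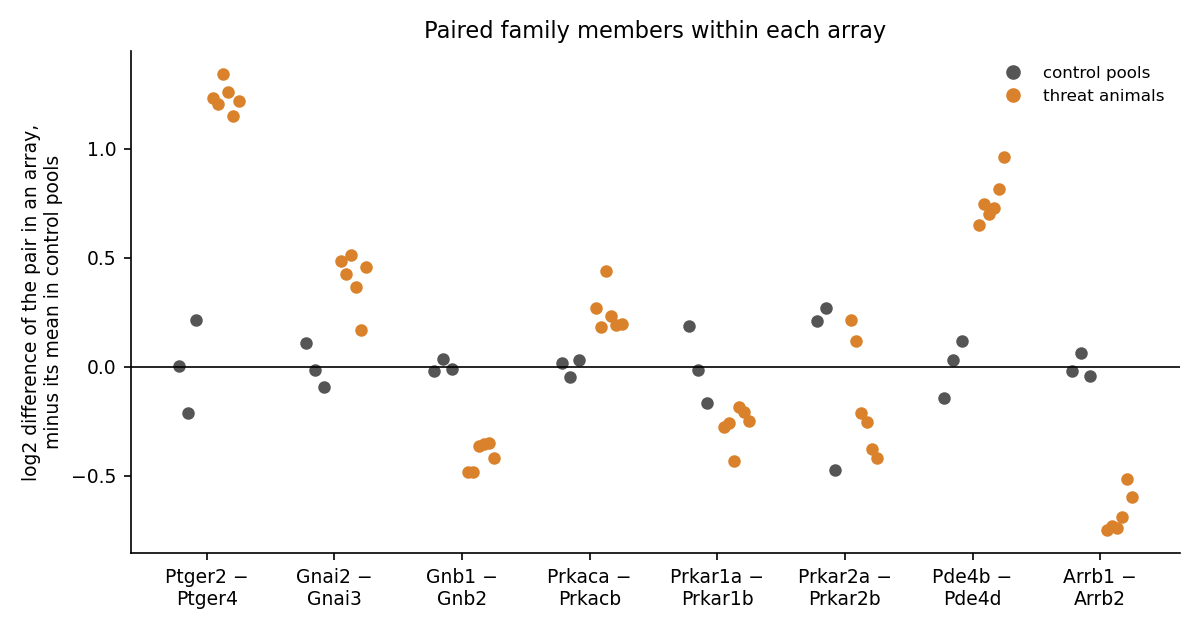
Within-array difference of 8 pairs of family members (y axis, log2, with the mean of the control pools set to 0), with control pools in grey and threat animals in orange. In 7 of the 8 pairs the orange and grey points do not overlap, and Prkar2a minus Prkar2b is the exception.

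Across the steps, 7 of the 8 pairs of family members differed between the groups in their within-array difference, at an exact permutation p of 0.0119 each. That p stands for groups that do not overlap, which 41.8% of single genes also showed, and the share among other gene pairs was not computed. The pair Prkar1a and Prkar1b missed the threshold with the mean of probe sets (adjusted exact permutation p = 0.0680). The sizes ran from 0.25 for the catalytic subunits to 1.23 for the prostaglandin receptors. Both genes were called in 2 of these pairs: Ptger2 rose and Ptger4 fell, and Gnb1 and Gnb2 both rose. Ptger2 and Ptger4 each separated the groups, in opposite directions, so their difference had to separate them too. In the other 5, 1 gene of the pair was called: Gnai2, Prkaca, Prkar1a, Pde4d or Arrb2. The spread of the list was like that of all genes. The median SD of a gene among threat animals was 0.0737 for the list and 0.0846 for all genes tested, and among control pools 0.072 and 0.0832.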

How the data were processed

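Each probe set's deposited value is on the log2 scale. The submitters' processing notes name RMA, and its version is not given in the sources here. The log base follows from the range, 0.607 to 13.567, and array medians lay at 3.19 to 3.22. RMA gives no detection call and equalises arrays, so the number of arrays limits precision. Gene symbols came from the platform annotation, updated through Entrez numbers to RefSeq (GRCm38.p6): of 45037 probe sets other than controls, 34945 name 1 gene, 932 several and 9160 none here, and 34741 of the first matched. Per gene the probe set with the highest mean was used, and genes at or above the 40th percentile of all probe sets were tested, 13078 in all. HighThreat minus LowThreat was tested with limma 3.58.1 under R 4.3.3 (lmFit, eBayes), two-sided, with Benjamini-Hochberg adjustment over all genes. The fit was tested on simulated data. The 35 genes measured, the further lists and the tests were chosen with earlier results of these data known. All listed genes are named; array values (each control pool, and the lowest, median and highest threat animal) are given for the called gene with the smallest p in each direction and the brightest gene of each step, and for differences of at least 1.5-fold. Differences within pairs of family members were tested by exact permutation of the arrays. Alternatives changed the filter, the choice or mean of probe sets, the scaling, the variance model, array weights, the treatment of pools and the arrays included, and 1, each probe set on its own, was chosen after seeing the data.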

Additional observations from a re-analysis of the deposited data

Results flagged for a closer look

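In 36 genes examined, 2 held a threat animal that stood apart from the other 5, where chance marks about 1 group in 20. Gnb1 was highest in threat animal 4, at 9.0, with the nearest animal at 8.95 and a gap of 0.64 of the range. Adcy9 was lowest in threat animal 2, at 3.19, with the nearest animal at 3.51 and a gap of 0.68 of the range.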

How the results depend on the processing

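Of the 20 called genes, 15 kept direction and call under every alternative run, and the exceptions were Gnb1, Prkaca, Akap10, Prkar1a and Akap13. The losses of the last 4 are given above. Gnb1 was also lost with the replicate block (adjusted p = 0.0685), threat animals averaged by number (0.0946), quantile scaling (0.131), no filter (0.0759), averaged probe sets (0.273) and probe sets specific to 1 transcript (0.649). The count of genes that rose ran from 6 to 9 and that of genes that fell from 11 to 12. Control pools hold 2 animals each and threat arrays 1, and averaging threat animals by number left 6 rises and 11 falls. Deviations of pools and threat animals that share numbers correlated at 0.149, -0.152 and -0.029. These rest on few arrays and cannot show whether the numbers pair them. With the replicate block 8 rose and 11 fell. Among pairs of family members that averaging could not reach the threshold. The median over all genes was 0.029, 0.044 after quantile scaling and 0.038 after median centring.

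The pair Prkar1a and Prkar1b kept its sign but missed the threshold when probe sets were averaged (-0.094). Signs changed only in small differences, and the cause was not tested. When each gene's probe sets were averaged, Gnai3 gave -0.0077, Prkar1b -0.052 and Grk6 0.0018. With probe sets specific to 1 transcript Gnb1 gave -0.034, Akap1 -0.0038 and Grk6 0.073. Quantile scaling gave 0.017 for Adcy3, 0.015 for Adcy9, 0.028 for Akap9 and -0.0067 for Rapgef3. Median centring gave 0.0078 for Adcy9 and 0.0015 for Akap9, and array weights gave 0.019 for Adcy3 and 0.0072 for Adcy9. With each array left out in turn, the lowest and highest differences were -0.012 and 0.067 for Adcy7 and -0.028 and 0.066 for Adcy9. They were -0.018 and 0.0095 for Akap9 and -0.053 and 0.041 for Adcy3. The lowest and highest in these runs were -0.22 and 0.031 for Prkar2b and -0.040 and 0.25 for Akap1. For Rapgef3 they were -0.0077 and 0.028, and for Pde2a -0.081 and 0.0006.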
